A study of Mus musculus with 20 samples.

Results

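Peritoneal macrophages of C57BL/6JRj mice (4 libraries) were compared with macrophages of the dura mater that carry little MHC class II (4 libraries, also from C57BL/6JRj mice). These 8 libraries were taken by their titles from the 20 macrophage libraries of the series, which also cover dura macrophages with high MHC class II, choroid plexus macrophages and microglia, with 4 libraries each. The dura side was chosen for low MHC class II and is marked "int" in the sample titles and "lo" in the cell type label. It is called dura MHC II-low here. The labels give strain, tissue and cell type, and no age, sex, sort gate or way of isolation, so it is not known which peritoneal macrophages were collected. They also do not say whether the replicates of a population come from separate mice. The p-values below rest on the spread between libraries, which may be technical. In bulk libraries, fewer cells of a type and less RNA per cell cannot be told apart.

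Peritoneal macrophages float in the fluid of the abdominal cavity, and in mice the large, long-lived kind depends on the transcription factor Gata6, which responds to retinoic acid. A smaller kind derives from blood monocytes and carries more MHC class II. Macrophages of the dura, the outer covering of the brain, belong to the border macrophages of the central nervous system, and those with little MHC class II are known for scavenger receptors such as Mrc1 and for Lyve1. MHC class II molecules show peptides to CD4 T cells. Their genes are switched on together by the co-activator Ciita, through an enhanceosome that sits on short promoter elements called the X and Y boxes.

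Promoter letters of some genes of the MHC class II comparison and the retinoid comparison are shown first. All are from RefSeq on build GRCm38.p6, read 5′ to 3′ on the strand of the gene, with the matched letters in capitals. The Y box was searched as GATTGG on both strands in the 250 bases before each transcript start. These letters were found in all 8 of the 8 MHC class II genes with a promoter in the table, against 14.6% of the 32851 promoters searched and 18.3% of the 14185 promoters of tested genes. No promoter sequence was at hand for H2-Ab1, Cd74 and Ciita. The match began 199 bases before the start for H2-DMa and 35–101 bases before it for the other 7 genes. The capitals mark the letters GATTGG, or CCAATC where the match is on the opposite strand, as in the second match of H2-Eb1. A match of 6 letters does not show a working Y box.
H2-Aa (chr17:34287837-34287922, minus strand): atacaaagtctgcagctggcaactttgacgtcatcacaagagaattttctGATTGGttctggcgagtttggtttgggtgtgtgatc
H2-Eb1 (chr17:34305757-34305842, plus strand): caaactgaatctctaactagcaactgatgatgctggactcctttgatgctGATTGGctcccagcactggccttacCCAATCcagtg
H2-DMa (chr17:34125269-34125354, plus strand): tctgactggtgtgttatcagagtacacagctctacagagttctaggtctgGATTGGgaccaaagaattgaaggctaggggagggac
H2-DMb2 (chr17:34145108-34145193, plus strand): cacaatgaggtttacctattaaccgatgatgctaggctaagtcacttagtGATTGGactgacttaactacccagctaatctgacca
H2-Oa (chr17:34092285-34092370, plus strand): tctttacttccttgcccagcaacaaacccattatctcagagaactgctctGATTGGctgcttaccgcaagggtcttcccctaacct

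A retinoic acid response element was searched as GTTCA followed, after 6 bases of any kind, by GTTCA again, on both strands of the same 250 bases. It was found in 22 of the 32851 promoters (0.067%), and in 1 of the 10 listed retinoid genes with a promoter in the table, Rarb. It was also found in Cyp26a1, on the strand opposite to the gene, but this gene is not on the list and was chosen after its values were seen. The letters fixed in the search are those that the Rarb promoter carries, and other spellings of the repeat were not searched. The match in Rarb, set beside 0.067% of all promoters, is therefore no test of enrichment among retinoid genes. A match describes letters and does not show that a factor binds there. The capitals mark the element.
Rarb (chr14:16575483-16575578, minus strand): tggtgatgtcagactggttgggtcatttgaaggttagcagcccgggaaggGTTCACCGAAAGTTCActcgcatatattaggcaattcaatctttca
Cyp26a1 (chr19:37697726-37697807, plus strand): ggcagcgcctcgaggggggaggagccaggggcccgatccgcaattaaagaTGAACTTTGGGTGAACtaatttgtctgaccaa

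The 8 libraries held 23532894–30398564 reads counted to genes. Levels are given in CPM, counts scaled to a common library total after trimmed-mean (TMM) adjustment. Differences are log2 fold changes fitted by edgeR, peritoneal minus dura MHC II-low, with a standard error, and n is 4 libraries per population. Means are given with their SD. A gene was called when its Benjamini-Hochberg adjusted p was under 0.05 and its change at least 2-fold. Of 13960 genes tested, 4451 were called (31.9%), of which 1657 (11.9%) were higher and 2794 (20%) lower in peritoneal macrophages. The median log2 fold change of all tested genes was -0.11. Changes of 100-fold or more were found for 126 genes that rose and 485 that fell. The plot of mean levels shows both arms, and the lower arm extends to genes with no counts in peritoneal libraries.

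**Figure D1:**
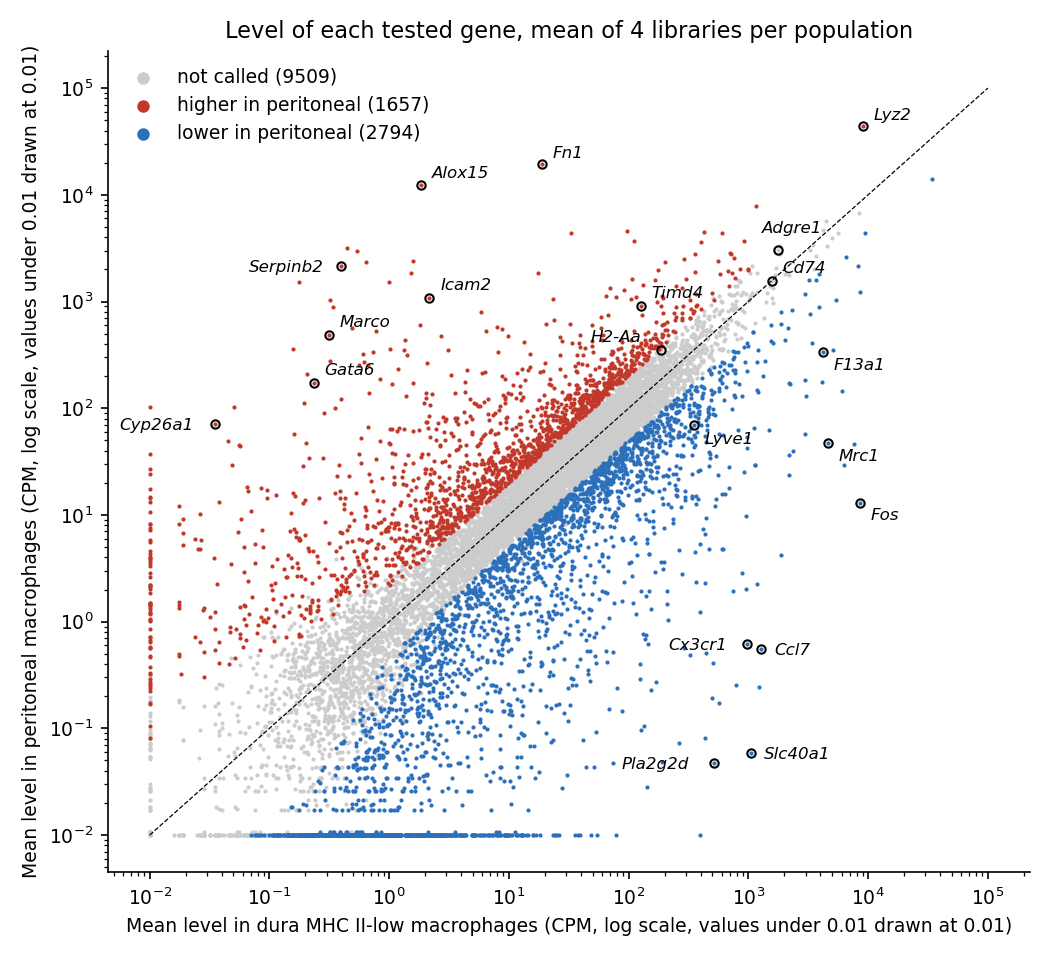
Mean level of each tested gene in peritoneal macrophages (vertical axis, CPM, log scale) against dura MHC II-low macrophages (horizontal axis, CPM, log scale), 4 libraries each, with called genes in colour and 20 named genes ringed. Gata6, Icam2, Alox15 and Fn1 lie far above the dashed line of equal levels, Slc40a1, Pla2g2d, Ccl7 and Cx3cr1 far below it, and Cd74 close to it.

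The markers of both populations followed the labels. Gata6, the transcription factor of large peritoneal macrophages, had 144, 183, 171 and 189 CPM in peritoneal libraries, against 0.53, 0, 0.301 and 0.106 CPM in dura MHC II-low libraries (9.55 ± 0.93, adjusted p = 1.55e-07). Without dura MHC II-low replicate 1, which held most of the few Gata6 counts there, the log2 fold change was 10.32. Icam2, an adhesion molecule used to sort large peritoneal macrophages, had 1106, 933, 1067 and 1224 CPM, against 1.4, 2.44, 1.55 and 3.14 CPM in dura MHC II-low libraries (8.98 ± 0.27, adjusted p = 5.83e-16). For both genes every peritoneal library lay far above every dura library. Timd4, a receptor for phosphatidylserine on dying cells that marks long-lived tissue macrophages, had 1228, 868, 760.1 and 759.8 CPM in peritoneal libraries, against 132, 118, 132 and 127 CPM in dura MHC II-low libraries (2.83 ± 0.26). It rose without overlap, and microglia averaged 0.0311 ± 0.0359 CPM.

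Lyve1, a hyaluronan receptor of border macrophages, had 57.8, 65.4, 84 and 69.9 CPM in peritoneal libraries, against 348, 357, 408 and 291 CPM in dura MHC II-low libraries (-2.34 ± 0.22, adjusted p = 2.27e-08). The transglutaminase subunit gene F13a1 had 201, 406, 439 and 311 CPM, against 4009, 4253, 4621 and 4019 CPM in dura MHC II-low libraries (-3.64 ± 0.30, adjusted p = 4.75e-09). Both fell without overlap, and both remained clearly detected in peritoneal macrophages. Mrc1, the mannose receptor, fell more steeply, with 58.4, 42.2, 27.7 and 62.2 CPM in peritoneal libraries, against 4493, 4649.8, 4693 and 4621 CPM in dura MHC II-low libraries (-6.60 ± 0.22). Adgre1, which encodes the F4/80 antigen, had 3019.9, 3170.0, 2477 and 3577 CPM, against 1838, 1861, 1640.4 and 1783 CPM in dura MHC II-low libraries (0.78 ± 0.12, adjusted p = 1.18e-05). Its groups did not overlap, and its change stayed under the 2-fold limit. The pan-macrophage transcription factor Spi1 differed little, at 367 ± 43.6 CPM in peritoneal libraries and 439.9 ± 21 CPM in dura MHC II-low libraries (-0.26 ± 0.09).

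Of 11 MHC class II genes 10 were tested, and of these 1 was called higher, 1 lower and 8 were not called, beside 11.9% higher and 20% lower among all tested genes. Their median log2 fold change was 0.12. The levels of 8 of the 10 varied more among peritoneal than among dura MHC II-low libraries. H2-Aa, the alpha chain of I-A, had 659, 240.1, 63.4 and 431 CPM in peritoneal libraries, against 178, 178, 186 and 201 CPM in dura MHC II-low libraries. Peritoneal replicates 1, 4 and 2 lay above the 4 dura libraries and replicate 3 below them. H2-Ab1, the beta chain of I-A, had 1008, 354, 111 and 707 CPM, against 296, 299, 308 and 337 CPM in dura MHC II-low libraries, with the same order of libraries. H2-Eb1, the beta chain of I-E, had 366, 178, 40.4 and 297 CPM, against 121, 100.2, 113 and 155 CPM in dura MHC II-low libraries. The fitted differences were 0.91 ± 0.48 for H2-Aa (adjusted p = 0.116), 0.81 ± 0.41 for H2-Ab1 (adjusted p = 0.0961) and 0.85 ± 0.48 for H2-Eb1 (adjusted p = 0.139). Their approximate 95% intervals ran from -0.11 to 1.92, from -0.05 to 1.68 and from -0.17 to 1.87, ranges that hold both no change and a rise of more than 2-fold. Leaving out peritoneal replicate 3 changed these calls, and all 3 genes were then called higher. The log2 fold changes were 1.25, 1.15 and 1.2, with adjusted p-values of 0.00545, 0.000711 and 0.00730. The other fits that left out 1 library kept them uncalled, with log2 fold changes down to 0.40, 0.33 and 0.49.

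The invariant chain gene Cd74, which guides class II molecules through the cell, had 2619, 1047, 268 and 2243 CPM in peritoneal libraries, against 1588, 1511, 1601 and 1626 CPM in dura MHC II-low libraries (-0.03 ± 0.41, adjusted p = 0.958, interval -0.90 to 0.84). Here peritoneal replicates 1 and 4 lay above and replicates 2 and 3 below the dura libraries. Ciita, the co-activator of the whole set, had 20.9, 4.96, 1.45 and 14.9 CPM, against 15.9, 10.3, 7.57 and 6.87 CPM in dura MHC II-low libraries (0.05 ± 0.53, adjusted p = 0.952). The peptide-loading chaperone genes H2-DMa (0.19 ± 0.22) and H2-DMb1 (-0.13 ± 0.26) were not called. H2-DMb2, a second beta chain of that chaperone, had 4.91, 1.71, 2.66 and 4.84 CPM, against 0.909, 2.19, 1.81 and 2.08 CPM in dura MHC II-low libraries (1.01 ± 0.34, adjusted p = 0.0161). It was called at the edge of the 2-fold limit with overlapping groups. Without dura MHC II-low replicate 1, peritoneal replicate 1 or peritoneal replicate 4 it was not called, at 0.80, 0.81 and 0.85. H2-Oa, part of the inhibitor of that chaperone, fell at very low levels, with 0.104, 0.0729, 0.069 and 0.0857 CPM in peritoneal libraries, against 0.416, 1.16, 0.867 and 0.423 CPM in dura MHC II-low libraries (-3.04 ± 0.41). Of its exon length 22.8% is shared with another annotated gene. Its partner H2-Ob was not called (-0.37 ± 0.19). H2-Eb2 was not tested, with 3 counts in all peritoneal libraries and 1 in all dura MHC II-low libraries.

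**Figure D2:**
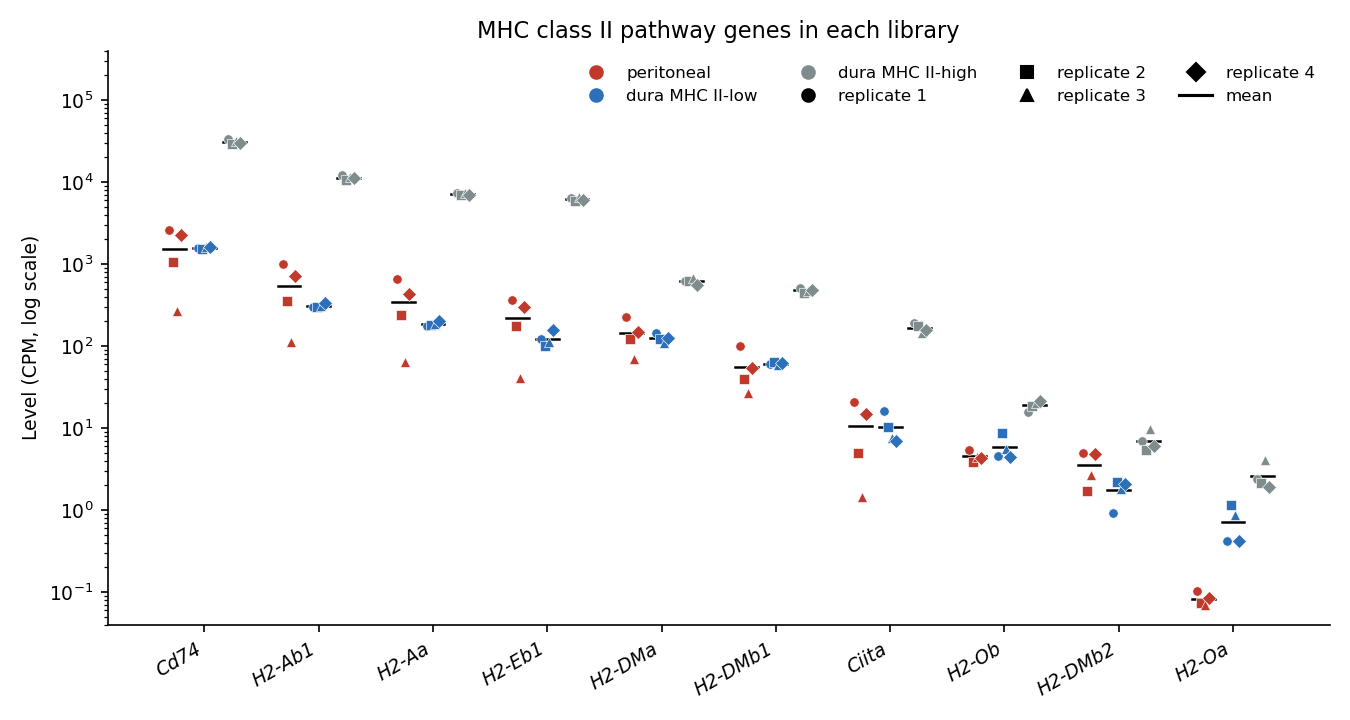
Level of 10 MHC class II pathway genes (CPM, log scale) in each library of peritoneal, dura MHC II-low and dura MHC II-high macrophages, with a marker shape per replicate and a bar for the mean. For Cd74, H2-Ab1, H2-Aa and H2-Eb1 the peritoneal libraries lie on both sides of the closely grouped dura MHC II-low libraries, for H2-Oa they lie below them, and the dura MHC II-high libraries lie above both for all 10 genes.

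Leaving aside H2-Oa, which had 9 counts over the 4 peritoneal libraries, these ranked 1, 4, 2 and 3 from high to low for 7 of the other 9 genes, and replicate 1 was highest for all 9. The ratio of the highest to the lowest library was 10.4 for H2-Aa, 9.79 for Cd74 and 14.5 for Ciita among peritoneal libraries, against 1.13, 1.08 and 2.32 among dura MHC II-low libraries. It was nearly equal for H2-DMb2, at 2.86 among peritoneal and 2.41 among dura MHC II-low libraries, and smaller among peritoneal libraries for H2-Ob (1.4 against 1.97) and H2-Oa (1.5 against 2.78). The class I genes H2-K1 and B2m, which present peptides to CD8 T cells, also varied among libraries. In both populations replicates 1 and 4 lay above replicates 2 and 3 for these genes. H2-K1 had 2807, 1511, 831 and 3068 CPM in peritoneal libraries, against 2259, 1407, 1327 and 1865 CPM in dura MHC II-low libraries, and B2m had 4794, 2457, 1588 and 4627 CPM, against 4298, 2678, 2873 and 4092 CPM. Neither was called (0.26 ± 0.34 and -0.05 ± 0.27). Irf7, a regulator of the interferon response, was likewise higher in replicates 1 and 4 than in replicates 2 and 3 in both populations. It had 566, 77.2, 82.9 and 759 CPM in peritoneal libraries, against 518, 163, 298 and 419 CPM in dura MHC II-low libraries. The summed level of 14 interferon-response genes was 2266, 419, 475 and 1800.2 CPM in peritoneal libraries, against 4137, 1709, 2933 and 2982 CPM in dura MHC II-low libraries. The part of that response in the spread of the class II genes was not tested.

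The dura sort for low MHC class II set the level on that side. The other dura population was set beside it, from the same fit and sharing its peritoneal libraries. That population was in turn chosen for high MHC class II. Its distance from the peritoneal libraries therefore also depends on the choice of cells and is no independent measure of the peritoneal level. Peritoneal macrophages were called lower than dura MHC II-high macrophages for 9 of the 10 genes. Of all tested genes 20.1% were called lower and 9.18% higher in that comparison. H2-Aa averaged 348 ± 256 CPM in peritoneal libraries and 7129.8 ± 283 CPM in dura MHC II-high libraries (SD, n = 4 each), a log2 fold change of -4.36 ± 0.54. For Cd74 the difference was -4.32 ± 0.47 and for Ciita -3.99 ± 0.57. H2-DMb2 was not called there (-1.0 ± 0.34, adjusted p = 0.0168). The class II list as a whole summed to 5014, 1993, 587 and 3906 CPM in peritoneal libraries, against 2298–2520 CPM in dura MHC II-low libraries and 53725–60248 CPM in dura MHC II-high libraries. The 9 genes of the list on chromosome 17 lie in 1 region of build GRCm38, in which H2-Ab1 (chr17:34257689-34269419, plus strand) and H2-Aa (chr17:34282744-34287823, minus strand) are 13325 bases apart. The genes of this region are closely related, and reads that fit several of them may have been split between them.

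Among the 12 genes with the largest rises were Alox15, F5 and Prg4. Alox15, the lipoxygenase that makes 12-hydroxy and 15-hydroxy fatty acids in mouse peritoneal macrophages, had 11264, 12434, 12290.3 and 13714 CPM in peritoneal libraries, against 0.114, 0.257, 0.151 and 6.87 CPM in dura MHC II-low libraries. The coagulation factor V gene F5 had 1423, 2011, 868 and 1764 CPM, against 0, 0, 0 and 0.705 CPM in dura MHC II-low libraries. Prg4, which encodes the lubricant lubricin, had 2718, 3895, 1795 and 4155 CPM, against 0.416, 0.193, 0 and 1.16 CPM in dura MHC II-low libraries. Each peritoneal library exceeded each dura library by more than 100-fold for these genes. Among the dura libraries replicate 4 held most of the counts, and their fitted log2 fold changes depend on it. With all libraries they were 12.70 ± 1.07 for Alox15, 13.01 ± 1.56 for F5 and 12.77 ± 1.13 for Prg4. Without dura MHC II-low replicate 4 they were 16.08 for Alox15 and 13.92 for Prg4, and F5 had no dura counts left and was at least 41929-fold higher.

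The same library carried most dura counts of several other genes with large rises. Slpi, an inhibitor of leukocyte elastase, had 2562, 3463, 2954 and 3005 CPM in peritoneal libraries, against 0.0379, 0.129, 0.113 and 1.87 CPM in dura MHC II-low libraries (12.42 ± 0.75; 14.90 without replicate 4). Serpinb2, an inhibitor of plasminogen activators, had 1923, 1739, 2840.3 and 2067 CPM, against 0, 0.0321, 0 and 1.55 CPM in dura MHC II-low libraries (12.37 ± 0.93; 16.93 without replicate 4). Saa3, an acute-phase protein gene of macrophages, averaged 2367 ± 899.5 CPM in peritoneal libraries and 0.64 ± 0.968 CPM in dura MHC II-low libraries (11.83 ± 0.89; 13.79 without replicate 4). Arg1, the arginase of alternatively activated macrophages, averaged 893 ± 495 CPM in peritoneal libraries and 0.342 ± 0.483 CPM in dura MHC II-low libraries (11.31 ± 0.84; 12.99 without replicate 4). Over the 12 genes with the largest rises, dura MHC II-low replicate 4 held 450 counts, against 20–33 in the other 3 dura libraries. Its median level was 0.0515% of the peritoneal mean. Each of the genes stayed called without it.

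Selp, the adhesion receptor P-selectin, had 848, 1204, 921 and 1170.1 CPM in peritoneal libraries, against 0, 0, 0.791 and 0.494 CPM in dura MHC II-low libraries (11.66 ± 0.72; 12.58 without dura MHC II-low replicate 3). Selp (chr1:164115264-164150026) ends 1812 bases before F5 starts, on the same strand of chromosome 1 in build GRCm38. F7, coagulation factor VII, had 88.1, 94.6, 103 and 122 CPM, against 1 count in 1 dura MHC II-low library, a ratio of 11358 with a 95% counting interval of 2038 to 448663. Without that library, dura MHC II-low replicate 4, it was at least 2831-fold higher. F7 (chr8:13026034-13035809) ends 1499 bases before F10, which encodes factor X and also rose, with 539, 492, 511 and 561 CPM in peritoneal libraries, against 0.151, 0.739, 1.06 and 1.16 CPM in dura MHC II-low libraries (9.38 ± 0.35). In both neighbouring pairs each gene stood far above its dura level in every peritoneal library. The other genes with the largest rises were expressed at lower levels. Ubash3a, a phosphatase-like regulator of lymphocyte receptor signalling, had 31.3, 17.9, 35.1 and 22.9 CPM, against no counts in dura MHC II-low libraries (at least 1018-fold higher against 3 counts over the group). Asz1, a germ cell gene of the piRNA pathway, had 26.3, 18.8, 34 and 17 CPM, against no counts in dura MHC II-low libraries (at least 917-fold). Vmn2r26, a vomeronasal receptor gene, had 34.8, 32.7, 50.5 and 31.1 CPM, against 1 count in dura MHC II-low libraries (ratio 4236, counting interval 759.8 to 167350.0; at least 1056-fold without dura MHC II-low replicate 4).

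Among the 12 genes with the largest falls were Slc40a1, Pla2g2d and Slco2b1. Slc40a1, the iron exporter ferroportin, had 0, 0.0364, 0.069 and 0.129 CPM in peritoneal libraries, against 1021, 1182, 1146 and 857 CPM in dura MHC II-low libraries (-14.08 ± 0.43). Pla2g2d, a secreted phospholipase A2, had 0.0346, 0.0364, 0.0345 and 0.0857 CPM, against 514, 507, 512 and 521 CPM in dura MHC II-low libraries (-13.28 ± 0.27). Slco2b1, an organic anion transporter, had 0.0691, 0.364, 0.241 and 0.3 CPM, against 1252, 1337, 1196 and 1122 CPM in dura MHC II-low libraries (-12.29 ± 0.26). In these 3 genes the peritoneal libraries stayed under 0.4 CPM. Chst7, a sulfotransferase of glycosaminoglycans, had no counts in peritoneal libraries, against 71.9, 84.7, 90.4 and 67.6 CPM in dura MHC II-low libraries (at least 2853-fold lower). Gpr165, an orphan receptor gene, and Ptprk, a receptor phosphatase, had none either, against 35.1–44.2 and 34.2–39.1 CPM in dura MHC II-low libraries (at least 1421-fold and 1299-fold lower).

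Of the 12 genes, Igfbp5, Serpinf1, Adamts1, Ptgds and Cyr61 are known to be made by fibroblasts and other stromal cells. Igfbp5, which binds insulin-like growth factors, had no peritoneal counts, against 39.9, 55.4, 47 and 52 CPM in dura MHC II-low libraries (at least 1772-fold lower). Serpinf1, Adamts1 and Ptgds also had no peritoneal counts, against 30.1–48.2, 12.3–36.2 and 22.1–33.3 CPM in dura MHC II-low libraries (at least 1394-fold, 954-fold and 926-fold lower). They encode a serine protease inhibitor family member, a matrix protease and prostaglandin D2 synthase of the brain type. Cyr61, a matricellular immediate early gene, had 1 peritoneal count, in replicate 3, against 494, 419, 331 and 325 CPM in dura MHC II-low libraries (ratio 42644, counting interval 7653 to 1684400.0; at least 10423-fold lower without that library). The 8 fibroblast marker genes were all lower, with a median log2 fold change of -10.06 (-8.81 with genes that have no peritoneal counts at their bound). Their summed level was 1.28, 0.765, 0 and 0.0429 CPM in peritoneal libraries, against 197, 221, 152 and 158 CPM in dura MHC II-low libraries. The collagen gene Col1a1 had 1 peritoneal count, in replicate 1, against 56.6, 60.7, 56.4 and 42.9 CPM in dura MHC II-low libraries (ratio 5895, counting interval 1058 to 232865; at least 1442-fold lower without that library). Dcn, which encodes decorin, had no peritoneal counts, against 18.7, 19.9, 11.7 and 22.2 CPM. The part of fibroblast RNA in the falls of Igfbp5, Serpinf1, Adamts1, Ptgds and Cyr61 was not tested.

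**Figure D3:**
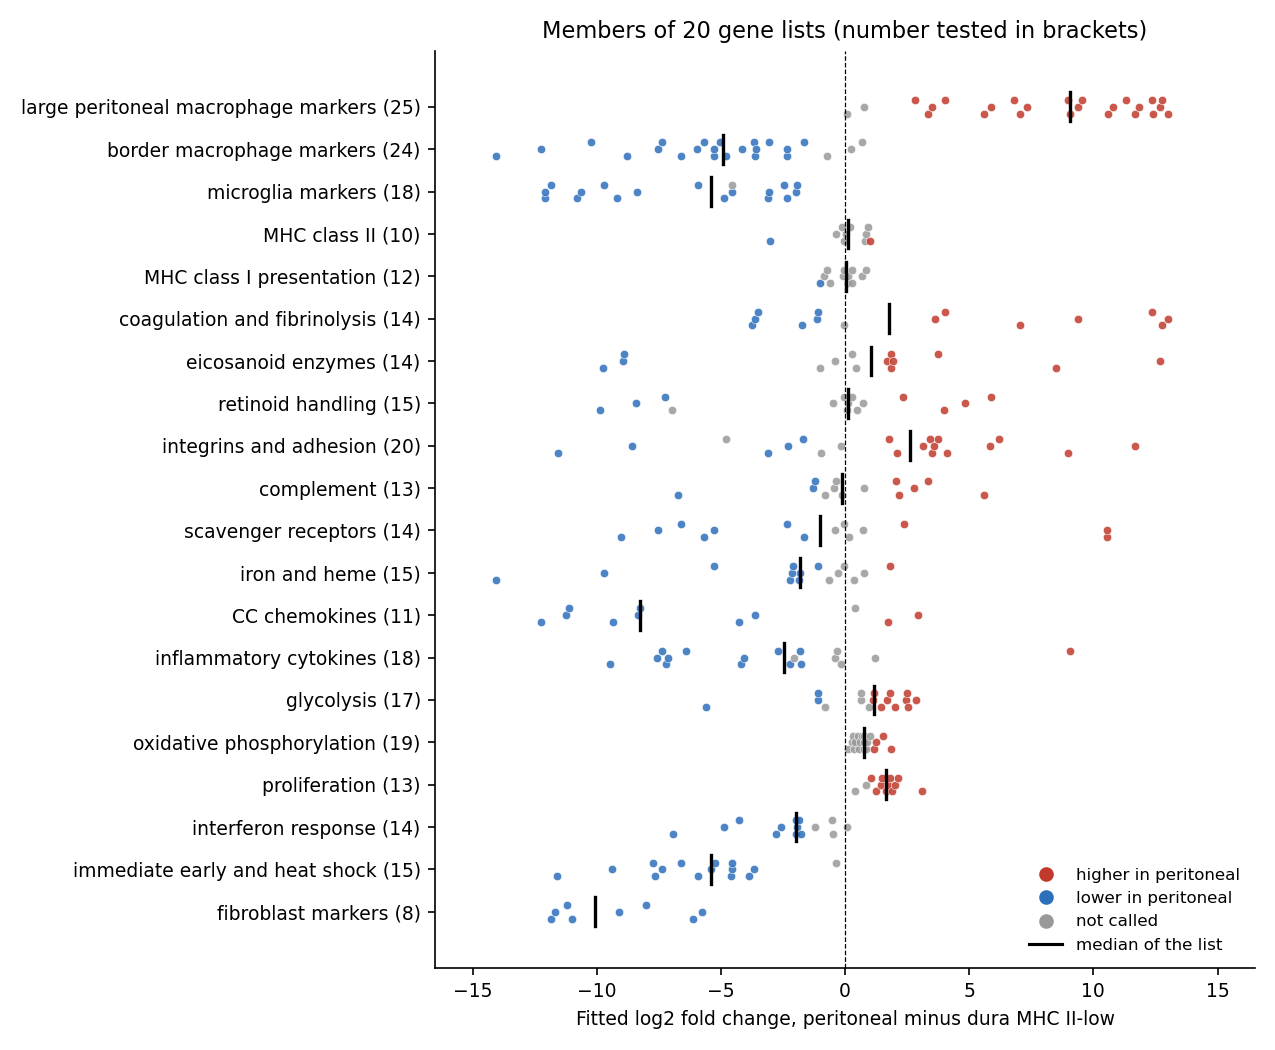
Fitted log2 fold change (peritoneal minus dura MHC II-low) of each tested member of 20 gene lists, coloured by call, with a bar at the median of each list. Large peritoneal macrophage markers and proliferation genes lie to the right, border macrophage, microglia, immediate early and fibroblast genes to the left, and MHC class I and class II genes around 0.

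The marker lists are given as counts. They were chosen with earlier results of these data known, so the counts are no independent test of identity. For each list here and below, the shares to set beside the counts are 11.9% higher and 20% lower among all tested genes. Of 25 tested large peritoneal macrophage markers 23 were higher and none lower (median 9.05). Cd5l and Marco, which are on the list of scavenger receptors and not on the large peritoneal list, also rose. The scavenger protein gene Cd5l had 2672, 1993, 1993 and 2908 CPM in peritoneal libraries, against 2.2, 1.54, 0.791 and 1.8 CPM in dura MHC II-low libraries (10.56 ± 0.42). The scavenger receptor Marco had 572, 538, 348 and 484 CPM, against 0.492, 0.514, 0 and 0.247 CPM in dura MHC II-low libraries (10.55 ± 0.46). Small peritoneal macrophage markers were mixed, with 2 of 9 higher and 5 lower (median -1.08). Clec10a and Fcrls, described further below, were among those that fell. Retnla, a secreted protein of alternatively activated macrophages, rose to 582, 1199.6, 682 and 705 CPM in peritoneal libraries, against 5.34, 3.44, 6.48 and 8.32 CPM in dura MHC II-low libraries (7.07 ± 0.49). The monocyte receptor Ccr2 was not called (-0.14 ± 0.32), with 123, 88.3, 30.4 and 144 CPM in peritoneal libraries, against 113, 112, 77.6 and 122 CPM in dura MHC II-low libraries and a mean of 1132 CPM in dura MHC II-high libraries. Peritoneal replicate 3, the library with the least MHC class II, was also the lowest for Ccr2. This library was not the lowest for Retnla or Clec10a of the same list.

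Of 24 border macrophage markers 21 were lower and none higher (median -4.91). Ms4a7, a membrane protein of border macrophages, had 0.553, 0.328, 0.621 and 0.129 CPM in peritoneal libraries, against 518, 536, 473 and 502 CPM in dura MHC II-low libraries (-10.22 ± 0.32). Gas6, a bridging ligand for the receptors Axl and Mertk, had 3.8, 4.04, 3.9 and 5.1 CPM, against 1915, 1924, 1893 and 1747 CPM in dura MHC II-low libraries (-8.80 ± 0.20). Cd163, a receptor for haemoglobin, Stab1, a scavenger receptor, and Cd209f, a lectin, fell by 5.27, 5.67 and 7.54 on the log2 scale. The platelet factor gene Pf4 was shared, at 1146 ± 515 CPM in peritoneal libraries and 717 ± 67.3 CPM in dura MHC II-low libraries (0.68 ± 0.24, adjusted p = 0.0241, under 2-fold). Cd38 (-0.72 ± 0.31) and Ninj1 (0.23 ± 0.14) were not called either. Of 18 microglia markers 17 were lower. The fractalkine receptor Cx3cr1 had 0.726, 0.255, 0.483 and 1.03 CPM in peritoneal libraries, against 956, 1088, 901 and 964 CPM in dura MHC II-low libraries (-10.63 ± 0.26). Tmem119 averaged 13.8 ± 4.42 CPM, against 114 ± 34.5 CPM in dura MHC II-low libraries and 5487 ± 771 CPM in microglia. P2ry12 fell by 4.57 on the log2 scale. Sall1 had no peritoneal counts, against 8.44, 8.13, 11 and 12.1 CPM in dura MHC II-low libraries (at least 358-fold lower) and a microglial mean of 388 CPM. The part of microglial RNA in the dura levels of these genes was not tested.

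Transcription factors differed in both directions, with 5 of 29 higher and 10 lower (median -0.27). Bhlhe40, a helix-loop-helix repressor needed by large peritoneal macrophages in mice, had 404, 402, 357 and 499 CPM in peritoneal libraries, against 5.68, 14.6, 16.3 and 17.1 CPM in dura MHC II-low libraries (4.95 ± 0.54). Spic, the factor of iron-recycling macrophages, had 3 counts in 1 peritoneal library, against 27.3, 24.1, 26.7 and 31.9 CPM in dura MHC II-low libraries (ratio 994, counting interval 339.9 to 4824; at least 743-fold lower without peritoneal replicate 2). Maf had 19.7, 23.9, 21.1 and 22.2 CPM, against 248, 243, 268 and 274 CPM in dura MHC II-low libraries (-3.57 ± 0.13). Cebpb was not called (0.08 ± 0.26).

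Among genes of retinoic acid handling 4 of 15 were higher and 3 lower (median 0.13), beside 11.9% higher and 20% lower among all tested genes. Aldh1a2, which makes retinoic acid, had 55.1, 54.7, 37 and 73.9 CPM in peritoneal libraries, against 2.61, 5.85, 1.81 and 3.49 CPM in dura MHC II-low libraries (4.00 ± 0.39, adjusted p = 1.55e-07). The receptor gene Rarb had 42.4, 42.2, 38.2 and 72.8 CPM, against 1.17, 0.675, 0.565 and 0.917 CPM in dura MHC II-low libraries (5.87 ± 0.58, adjusted p = 6.78e-08). Aldh1a1 and Crabp2, which fell, had no counts in peritoneal libraries and averaged 1.93 and 0.853 CPM in dura MHC II-low libraries. Rarg rose less than Rarb (2.35 ± 0.20), and the receptor genes Rara (0.50 ± 0.32) and Rxra (0.28 ± 0.16) were not called. Cyp26a1, which breaks down retinoic acid, was chosen after its values were seen and had 83, 47.4, 75 and 80.7 CPM in peritoneal libraries, against 0, 0, 0 and 0.141 CPM in dura MHC II-low libraries (10.76 ± 0.68). Its 4 dura counts were in replicate 4, and without that library it was at least 2001-fold higher. Rarb and Cyp26a1 are the pair whose promoters, shown above, hold the searched response element. Of the exon length of Rarb, 34.1% is shared with Top2b, and how reads there were counted is not known.

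Eicosanoid enzymes, which turn arachidonic acid into prostaglandins and leukotrienes, were higher for 7 of 14 and lower for 3 (median 1.06). The prostacyclin synthase gene Ptgis had 320.4, 359.6, 359.9 and 411 CPM in peritoneal libraries, against 1.67, 0.932, 0.415 and 1.02 CPM in dura MHC II-low libraries (8.49 ± 0.65). Leukotriene genes rose by less: Alox5 by 1.92, its partner Alox5ap by 1.84 and the leukotriene C4 synthase Ltc4s by 1.67 on the log2 scale. Ptgs1, the constitutive cyclooxygenase, had 833, 808, 762 and 1118 CPM in peritoneal libraries, against 231, 288, 266 and 201 CPM in dura MHC II-low libraries (1.84 ± 0.15). The inducible cyclooxygenase Ptgs2 went the other way, with 0, 0, 0.172 and 0 CPM, against 40.2, 30.4, 69.8 and 34.8 CPM in dura MHC II-low libraries (-9.73 ± 0.75; at least 1145-fold lower without peritoneal replicate 3). Hpgds, which makes prostaglandin D2, had 0.726, 0.583, 0.69 and 0.257 CPM, against 257, 269, 292 and 337 CPM in dura MHC II-low libraries (-8.96 ± 0.20). Hpgd, which inactivates prostaglandins, had 1.35, 1.75, 3.31 and 1.63 CPM, against 828, 973, 1025 and 1030.0 CPM in dura MHC II-low libraries (-8.90 ± 0.24). Together with Ptges, a prostaglandin E synthase (3.74 ± 0.75), and Alox15, these are the 10 genes of the list that were called.

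**Figure D4:**
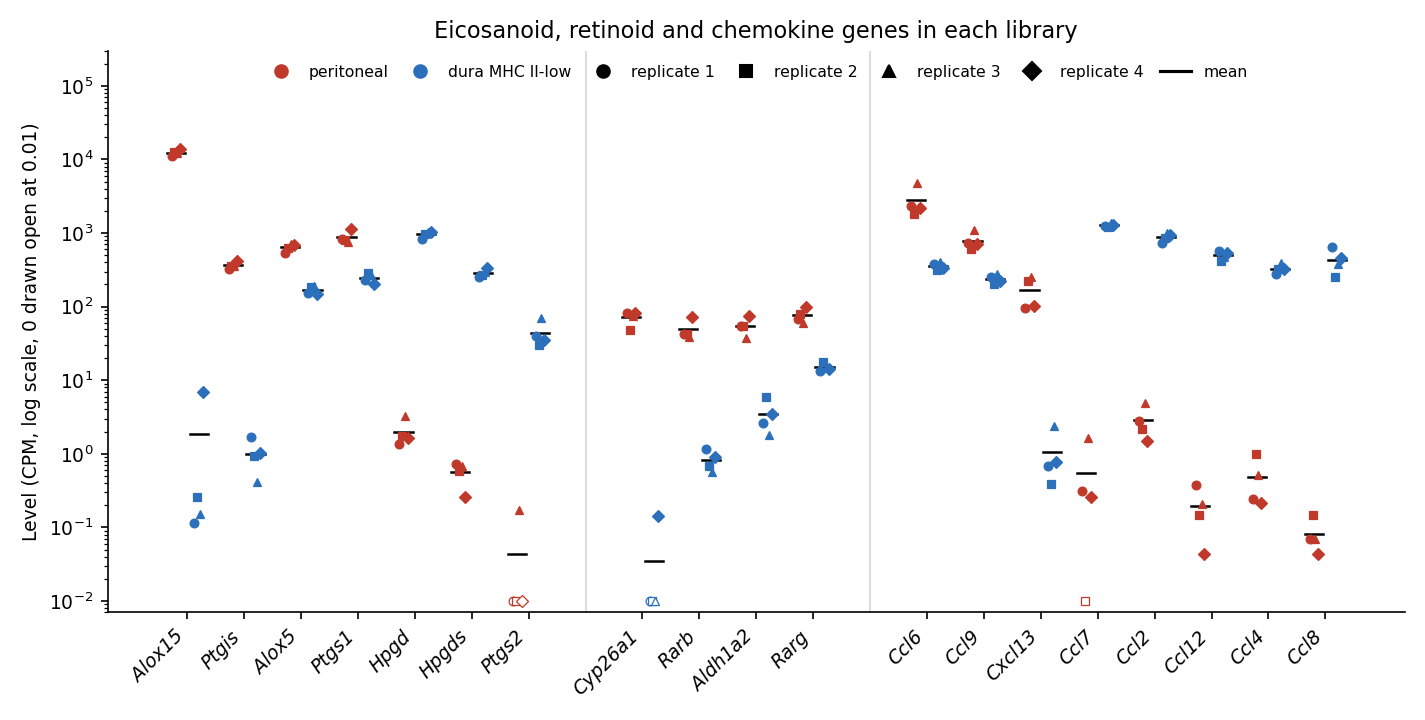
Level (CPM, log scale) of 7 eicosanoid, 4 retinoid and 8 chemokine genes in each peritoneal and each dura MHC II-low library, with a marker shape per replicate, a bar for the mean and values of 0 drawn open at 0.01. The peritoneal and dura libraries separate for each of the 19 genes, and dura MHC II-low replicate 4 stands above the other dura libraries for Alox15 and Cyp26a1.

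Chemokines, which attract leukocytes, mostly fell. Of 11 tested CC chemokines 8 were lower and 2 higher (median -8.25). Ccl7 had 0.311, 0, 1.66 and 0.257 CPM in peritoneal libraries, against 1264, 1221, 1370.2 and 1289 CPM in dura MHC II-low libraries (-11.12 ± 0.64; -12.70 without peritoneal replicate 3). Ccl2, the main attractant of monocytes, had 2.76, 2.19, 4.97 and 1.5 CPM, against 723, 848, 988 and 953 CPM in dura MHC II-low libraries (-8.25 ± 0.43). Ccl8 had 0.0691, 0.146, 0.069 and 0.0429 CPM, against 646, 253, 379.6 and 456 CPM in dura MHC II-low libraries (-12.26 ± 0.65). These 3 genes and Ccl12 (-11.23 ± 0.42) lie in 1 cluster on chromosome 11, from Ccl2 (chr11:82035571-82037453) to Ccl8 (chr11:82115185-82116799). Ccl3 at chr11:83647844-83649355 and Ccl4 at chr11:83662584-83664683 fell too (-8.32 ± 0.39 and -9.36 ± 0.48). Ccl6 and Ccl9, which lie near them at chr11:83587882-83593087 and chr11:83572919-83578636, rose. Ccl6 had 2318, 1839, 4761 and 2168 CPM in peritoneal libraries, against 377, 317, 409 and 339.6 CPM in dura MHC II-low libraries (2.94 ± 0.24), and Ccl9 had 737, 599.9, 1094 and 716 CPM, against 249.5, 204, 278 and 224 CPM (1.72 ± 0.16). Ccl24 was not called (0.41 ± 0.24). Genes of this family are closely related, so reads may be split between them.

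Of 11 CXC chemokines 3 were higher, Cxcl12, Cxcl13 and Cxcl14, and 6 lower (median -2.27). Cxcl13, which attracts B cells, had 96.8, 223, 255 and 101 CPM in peritoneal libraries, against 0.681, 0.386, 2.37 and 0.776 CPM in dura MHC II-low libraries (7.34 ± 0.75; 8.10 without dura MHC II-low replicate 3). Cxcl2, which attracts neutrophils, fell (-4.32 ± 0.47). Of 10 chemokine receptors 2 were higher and 5 lower (median -1.10). The 2 that rose were Ackr3 (8.29 ± 0.61; 8.89 without dura MHC II-low replicate 4) and Ccr1 (1.11 ± 0.15). Of 18 inflammatory cytokine genes 12 were lower and 1 higher (median -2.45), the riser being Tgfb2 (9.05 ± 1.03; 9.73 without dura MHC II-low replicate 3). Tnf had 0.242, 1.28, 0.172 and 1.33 CPM in peritoneal libraries, against 115, 115, 177 and 157 CPM in dura MHC II-low libraries (-7.58 ± 0.56). Il1b had 0.0691, 0.0364, 0.172 and 0.643 CPM, against 109.9, 163, 199 and 142 CPM in dura MHC II-low libraries (-9.45 ± 0.58; -10.56 without peritoneal replicate 4). The growth factor Igf1 averaged 51.2 ± 26.6 CPM in peritoneal libraries and 329 ± 17.9 CPM in dura MHC II-low libraries (-2.68 ± 0.26).

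Immediate early and heat shock genes, which cells switch on within minutes of handling or stress, were lower in the same libraries. Of 15 such genes 14 were lower and none higher (median -5.38). Fos had 9.26, 10.8, 13.1 and 18.3 CPM in peritoneal libraries, against 8489, 9819.6, 8377 and 7768 CPM in dura MHC II-low libraries (-9.39 ± 0.32). Jun had 46.5, 36.9, 50.4 and 52.3 CPM, against 7334, 8697, 8185 and 6307 CPM in dura MHC II-low libraries (-7.36 ± 0.26). Egr1 had 14.9, 38.3, 23.3 and 41.3 CPM, against 6617, 6407, 5988 and 6182 CPM in dura MHC II-low libraries (-7.74 ± 0.40). Fosb, Atf3, Zfp36 and the heat shock gene Hspa1a fell by 11.61, 5.90, 5.38 and 6.59 on the log2 scale, and Hsp90aa1 was not called (-0.37 ± 0.22). Among the transcription factors, the immediate early genes Egr2 (-6.62 ± 0.48) and Nr4a1 (-5.18 ± 0.50) also fell. The summed level of the list was 1144–1539 CPM in peritoneal libraries, against 42607–52300.4 CPM in dura MHC II-low libraries, 43898–48235 CPM in dura MHC II-high libraries, 27050–58780.0 CPM in choroid plexus libraries and 51102–60643 CPM in microglia. The peritoneal population stood below all 4 brain and border populations, so the population and the way its cells were taken cannot be told apart here. The part of this response in the falls of Ccl2, Ccl3, Ccl4, Cxcl2, Tnf, Il1b and Ptgs2 was not tested.

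**Figure D5:**
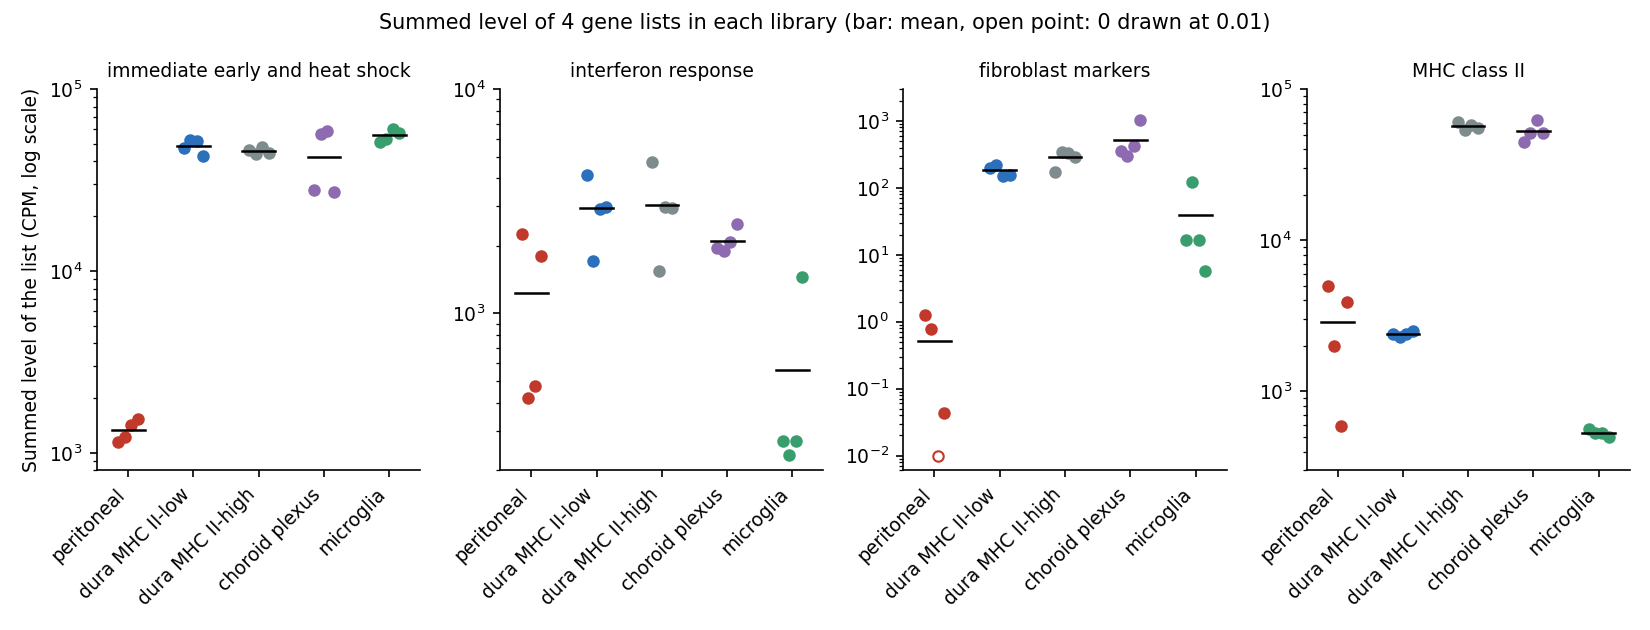
Summed level (CPM, log scale) of 4 gene lists in each library of the 5 populations, with a bar for the mean and a value of 0 drawn open at 0.01. Peritoneal libraries lie at 1144–1539 CPM for immediate early genes and at most 1.28 CPM for fibroblast genes, below the other 4 populations in both panels, and range over 587–5014 CPM for MHC class II genes.

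Adhesion molecules mostly rose, with 12 of 20 higher and 5 lower (median 2.62). The chains of the complement receptor Mac-1 were abundant: Itgam had 4896, 4592, 3304 and 5289.8 CPM in peritoneal libraries, against 421, 438, 407 and 431 CPM in dura MHC II-low libraries (3.41 ± 0.16), and Itgb2 rose by 3.14. Itga6, part of a laminin receptor, rose by 3.50. Itgb7, a chain of gut-homing integrins, had 882, 423, 159 and 868 CPM, against 6.32, 11.7, 3.84 and 9.66 CPM in dura MHC II-low libraries (6.20 ± 0.53), and its peritoneal libraries had the same order as for H2-Aa. Itgb5, which pairs with the alpha V chain, had 1.07, 3.39, 1.66 and 1.71 CPM, against 683, 883, 732 and 689 CPM in dura MHC II-low libraries (-8.57 ± 0.28). Vcam1, a ligand for leukocyte integrins, had 0.449, 0, 0.241 and 0 CPM, against 858, 485, 452 and 489 CPM in dura MHC II-low libraries (-11.57 ± 0.65; -12.58 without peritoneal replicate 1). Of these genes Itgb5 and Vcam1 were the ones that fell.

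Clotting and matrix proteins were split. Of 14 coagulation and fibrinolysis genes 7 were higher and 6 lower (median 1.78). F5, F7, F10, Serpinb2 and the urokinase receptor gene Plaur (4.03 ± 0.26) rose, and F13a1 fell. Of 16 matrix and matrix protease genes 8 were higher and 7 lower (median 1.13). Fibronectin, Fn1, had 14209, 28808, 10042 and 24465 CPM in peritoneal libraries, against 25.5, 18.1, 9.72 and 22.5 CPM in dura MHC II-low libraries (10 ± 0.91). Each peritoneal library lay above each dura library by more than 100-fold. Thrombospondin, Thbs1, had 3343, 5627, 3382 and 5319 CPM, against 35.7, 26.3, 31.6 and 39.7 CPM in dura MHC II-low libraries (7.05 ± 0.29). Ecm1 rose (5.05 ± 0.44) and the gelatinase gene Mmp9 fell (-4.16 ± 0.41). In TGF-beta signalling 4 of 19 genes were higher and 8 lower (median -0.74). Ltbp1, which stores latent TGF-beta in the matrix, had 1286, 1947, 1054 and 1806 CPM, against 1.4, 0.514, 0.716 and 1.37 CPM in dura MHC II-low libraries (10.57 ± 0.60). The signal mediator Smad3 rose (1.94 ± 0.20), and the receptor Tgfbr2 (-2.10 ± 0.13) and the inhibitor Skil (-4.09 ± 0.26) fell. The ligand gene Tgfb2 had 245, 497, 205 and 335 CPM in peritoneal libraries, against 0.265, 0.514, 1.32 and 0.317 CPM in dura MHC II-low libraries.

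Complement genes were higher for 5 of 13 and lower for 3 (median -0.13), beside 11.9% higher and 20% lower among all tested genes. C4b had 8673, 8116, 4009 and 10901 CPM in peritoneal libraries, against 1561, 930.3, 925 and 1236 CPM in dura MHC II-low libraries (2.77 ± 0.43). C3 (2.19 ± 0.29), factor B gene Cfb (3.33 ± 0.57), properdin gene Cfp (2.04 ± 0.15) and the complement receptor Vsig4 (5.61 ± 0.47) also rose, and C2 (-6.73 ± 0.37; -7.34 without peritoneal replicate 1) and the anaphylatoxin receptor genes C3ar1 (-1.30 ± 0.12) and C5ar1 (-1.21 ± 0.16) fell. The C1q chains C1qa, C1qb and C1qc were abundant on both sides and were not called, at -0.82, -0.35 and -0.43. Of 14 scavenger receptors 3 were higher and 7 lower (median -1.02). The risers were Cd5l, Marco and Msr1 (2.39 ± 0.15), and the fatty acid receptor Cd36 was not called (0.16 ± 0.22). Receptors and ligands for dying cells were higher for 5 of 14 and lower for 6 (median -0.44). Axl fell to 307, 139.8, 69.1 and 375 CPM in peritoneal libraries, against 1175, 867, 922 and 948 CPM in dura MHC II-low libraries (-2.14 ± 0.37), and the related receptor Mertk did not reach 2-fold (-0.73 ± 0.12, adjusted p = 2e-05). Its ligand Gas6 fell, as above, and the ligand Pros1 rose (1.69 ± 0.13).

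Iron genes mostly fell, with 9 of 15 lower and 1 higher, Steap3 (median -1.80). Beside Slc40a1, Cd163 and Spic, the heme oxygenase Hmox1 fell to 95.9, 108, 110.3 and 109 CPM in peritoneal libraries, against 376, 315, 516 and 339 CPM in dura MHC II-low libraries (-1.87 ± 0.22). The ferritin heavy chain Fth1 fell (-1.10 ± 0.11), and the light chain Ftl1 (-0.30 ± 0.13) and transferrin, Trf (0.34 ± 0.13), were not called. Lipid-handling genes were higher for 6 of 17 and lower for 3 (median 0.04), beside 11.9% higher and 20% lower among all tested genes. Fabp4 had 262, 312, 289 and 233 CPM in peritoneal libraries, against 0, 0.321, 0.867 and 1.27 CPM in dura MHC II-low libraries (8.79 ± 0.69; 9.46 without dura MHC II-low replicate 4). Lipoprotein lipase, Lpl, rose (1.69 ± 0.23). The apolipoprotein gene Apoe fell to 10362, 15323, 17374 and 12686 CPM in peritoneal libraries, against 31955, 38544, 36276 and 29768 CPM in dura MHC II-low libraries (-1.29 ± 0.15), and the cholesterol exporter Abca1 fell (-2.58 ± 0.22).

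Glycolysis and proliferation genes mostly rose. Of 17 glycolysis genes 10 were higher and 3 lower (median 1.15). Ldha had 1425, 1136, 1789 and 1283 CPM in peritoneal libraries, against 264, 240.4, 262 and 225 CPM in dura MHC II-low libraries (2.51 ± 0.13). Gapdh had 1061, 1025, 1121 and 1087 CPM, against 208, 197, 192 and 176 CPM in dura MHC II-low libraries (2.47 ± 0.11). Pfkl (2.86 ± 0.17) and Pkm (1.70 ± 0.13) also rose. Of 19 oxidative phosphorylation genes 4 were higher and none lower (median 0.75), and 17 had every peritoneal library above every dura library (21.9% of all tested genes did). Of 13 proliferation genes 11 were higher and none lower (median 1.65). The replication licensing gene Mcm5 had 168, 92.1, 211 and 134 CPM in peritoneal libraries, against 50.2, 27.7, 37.2 and 34 CPM in dura MHC II-low libraries (2.02 ± 0.27). Rrm2 rose by 3.10 and Top2a by 1.82 on the log2 scale.

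Interferon-response genes fell for 10 of 14 and rose for none (median -1.96). Ifit2 had 35, 4.01, 3.07 and 8.36 CPM in peritoneal libraries, against 549, 171, 409 and 346 CPM in dura MHC II-low libraries (-4.86 ± 0.95; -6.17 without peritoneal replicate 1). Of 12 class I presentation genes none was higher and 1 lower (median 0.03). That gene was H2-M3 (-1.02 ± 0.24), at the 2-fold limit. Its call was lost, at -0.99 to -0.86, in 9 of the 20 fits that left out 1 library, those without peritoneal replicate 2 or 3, dura MHC II-low replicate 1 or 4, dura MHC II-high replicate 1 or 3, microglia replicate 3 or 5 or choroid plexus replicate 1. H2-D1 had 3901, 3041, 1754 and 4528 CPM in peritoneal libraries, against 2294, 1540.5, 1459.6 and 1989 CPM in dura MHC II-low libraries (0.86 ± 0.26) and was not called. Without peritoneal replicate 3 it was called, at 1.07. Among peritoneal libraries replicate 3 was the lowest for H2-D1, H2-K1 and B2m.

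Markers of endothelial and mesothelial cells were low in both populations, and those of B cells and mast cells were not all low in peritoneal libraries. Endothelial markers summed to 0.814–2.49 CPM in peritoneal libraries, against 4.31–11.3 CPM in dura MHC II-low libraries, and 6 of 9 fell. Mesothelial markers, which the lining of the abdomen would add, summed to 0.386–1.17 CPM in peritoneal libraries, against 0.317–2.15 CPM in dura MHC II-low libraries. The mesothelial genes Msln, Upk3b and Wt1 were too low to be tested. Dendritic cell markers were lower for 6 of 14 and higher for none (median -1.12), and summed to 82.6–146 CPM in peritoneal libraries, against 316–410.1 CPM in dura MHC II-low libraries. Siglech had 0.0346, 0, 0.0345 and 0.0429 CPM, against 99.3, 168, 157 and 146 CPM in dura MHC II-low libraries. B cell markers summed to 109.9–120.0 CPM in peritoneal libraries, against 194–228 CPM in dura MHC II-low libraries. Of 7 tested 3 were higher and 3 lower (median -0.39), and the number higher was 1 to 3 when 1 library was left out. Mast cell markers summed to 112–145 CPM in peritoneal libraries, against 1.54–3.01 CPM in dura MHC II-low libraries. Nearly all of the peritoneal sum came from Hdc, described below. The mast cell genes Cpa3, Mcpt4 and Fcer1a were too low to be tested.

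Ms4a1 and Cd79a, a membrane protein and a receptor chain of B cells, were called higher at means of 4.26 and 4.86 CPM in peritoneal libraries and 0.605 and 0.788 CPM in dura MHC II-low libraries, with overlapping groups. The call of Ms4a1 was lost without dura MHC II-low replicate 1, 2 or 3 or peritoneal replicate 3 or 4 (log2 fold changes 2.39–2.74), and its log2 fold change was 4.42 without dura MHC II-low replicate 4. Cd79b (-3.34 ± 0.27) and Cd22 (-5.24 ± 0.35) were among the 3 that fell. Cd4, which some macrophages express, had 0, 0.255, 0.0345 and 0 CPM in peritoneal libraries, against 292, 253, 256 and 262 CPM in dura MHC II-low libraries (-11.71 ± 0.34; -13.85 without peritoneal replicate 2). Of 10 T and NK cell markers in the files 8 were too low to be tested, among them Cd3e, Cd3d and Cd3g. Hdc, the histamine-forming enzyme of mast cells, had 125, 112, 112 and 139.5 CPM in peritoneal libraries, against 0.227, 0, 0.791 and 0.564 CPM in dura MHC II-low libraries (8.28 ± 0.79), and the other 3 mast cell markers tested were not called.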

How the data were processed

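RNA sequencing libraries of 5 macrophage populations, 4 of each, were deposited by the authors as raw counts per gene symbol, 1 file per library. The submitters' processing notes name TopHat2 2.1.0, SAMtools 0.1.18, Trimmomatic 0.38 and FastQC 0.11.4, and build mm10. Which program counted the reads, with which annotation and strand, is not given in the sources used here. Summary lines without a gene symbol were left out (5.94–8.24% of reads without a feature and 1.01–1.51% ambiguous in the 8 libraries compared), and 0 per-sample columns were unused. In these 8 libraries 3 counts equal 0.0964–0.129 CPM. Intervals, floors and bounds cover counting error only.

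Counts of all 20 libraries were fitted with edgeR 4.0.16 (limma 3.58.1, R 4.3.3) by its robust quasi-likelihood test, with TMM factors, edgeR's default expression filter and 1 term per population, so the 5 populations share the estimate of the spread. Adjusted p-values are Benjamini-Hochberg values over all 13960 tested genes. Standard errors are the log2 fold change over the square root of F. For genes without counts in a population, a bound against 3 counts summed over it is given, and with 1 to 3 counts a ratio with its 95% interval. On simulated counts (13549 genes) the step called 35 of 100 genes changed 2-fold, 100 of 100 changed 4-fold and 4 unchanged genes.

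Named genes are the markers and MHC class II genes, the 12 largest changes per direction at 20 CPM or more without overlap, and per list up to 6 called members with the largest change at 10 CPM or more in the higher population, with up to 4 abundant members where uncalled ones are described. The members and lists were chosen with earlier results of these data known. Chosen after their values were seen were Cyp26a1, Alox5, Alox5ap, Ptgs1, Ltc4s, Itgb2, Itga6, Maf, Spi1, Msr1, Axl, Fth1, Hmox1, Ccl6, Ccl9, Igf1, Smad3, Tgfbr2, Pkm, Apoe, Atf3, Zfp36, Ms4a1, Cd79a, Aldh1a1, C3ar1, C5ar1, Crabp2, Cxcl14, Il4ra, Naip2, Naip5, Pros1 and Steap3. A few genes that the rule or the lists hold are not reported here. Alternatives were other normalizations and filters, DESeq2 1.42.0, the 8 libraries alone, the replicate number as a block and leaving out each library. Promoter sequences are from RefSeq (GRCm38.p6, the build of mm10) and gene positions from GENCODE M21 on the same build. A CArG box (CC and GG around 6 bases of A or T) was also searched. The 18 genes were the immediate early and heat shock list with Egr2, Nr4a1 and Cyr61. It was found in 2 of the 14 with a promoter, Zfp36 and Egr2, beside 1.14% of promoters of tested genes.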

Additional observations from a re-analysis of the deposited data

Results flagged for a closer look

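Of 380 sets of 4 libraries examined, 1 per named gene and population, 24 held a library set apart from the other 3 by most of the whole range, where chance flags about 1 in 20 sets. No explanation was tested.

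Among peritoneal libraries, replicate 1 stood apart for Ifit2 (35 CPM, against 3.07–8.36 CPM in the others) and replicate 2 for Cd4 (0.255 CPM, against 0–0.0345 CPM). Replicate 3 stood apart for Ccl6 (4761 CPM, against 1839–2318 CPM), Pkm (1259 CPM, against 1148–1160.0 CPM) and Ptgs2 (0.172 CPM, against 0 CPM). Replicate 4 stood apart for Rarb (72.8 CPM, against 38.2–42.4 CPM), Cebpb (2424 CPM, against 1517–1614 CPM), Naip2 (52.8 CPM, against 56.6–57.3 CPM) and Pla2g2d (0.0857 CPM, against 0.0345–0.0364 CPM).

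Among dura MHC II-low libraries, replicate 4 stood apart for 8 genes. It was higher for Alox15 (6.87 CPM, against 0.114–0.257 CPM), Slpi (1.87 CPM, against 0.0379–0.129 CPM), Serpinb2 (1.55 CPM, against 0–0.0321 CPM), Saa3 (2.08 CPM, against 0–0.289 CPM) and Arg1 (1.06 CPM, against 0–0.161 CPM). F5 and Cyp26a1 had counts there alone, at 0.705 and 0.141 CPM. Spi1 was lower there (409 CPM, against 447–454 CPM). Replicate 1 stood apart for Vcam1 (858 CPM, against 452–489 CPM), Cd163 (1326 CPM, against 1057–1063 CPM), Ccl3 (300.4 CPM, against 421–439 CPM) and Ctsc (4098 CPM, against 3823–3840.0 CPM). Replicate 2 stood apart for Tmem119 (166 CPM, against 93.3–103 CPM), Ptgds (33.3 CPM, against 22.1–23.1 CPM) and Stab1 (3500.0 CPM, against 2736–2832 CPM).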

How the results depend on the processing

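The direction and the side of the thresholds held for most results, and none of the 158 called genes named here changed sign. Of the 31 named genes not called, 8 changed sign under at least 1 alternative: Cd74 (-0.42 to 0.32), Ciita (-0.54 to 0.42), H2-DMa, H2-DMb1, B2m, Irf7, Ccr2 and Cebpb. Against 4451 called genes, the fits called 4461 with median-of-ratios and 4466 with upper-quartile factors, 4722 without the filter on low counts, 4566 with DESeq2 and 3845 with the 8 libraries alone. A filter of 10 CPM in 4 libraries left 9477 genes to test, of which 2798 were called, 1610 of them lower. Leaving out 1 library gave 4195–4653 called genes, 1537–1776 higher and 2658–2877 lower. H2-M3 fell below 2-fold with both other normalizations, DESeq2 and the 8 libraries alone (-0.99 to -0.98), which takes the class I count to 0 lower. H2-DMb2 was not called with the 8 libraries alone (1.03, adjusted p = 0.0619). DESeq2 gave no adjusted p for Igfbp5 and Col1a1. The cause was not tested. Depth limits the calls in the lowest genes: a gene with no counts in a library may be present at up to 0.0964–0.129 CPM.

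With the replicate number as a block 4369 genes were called (1644 higher and 2725 lower), and 3804 with the 8 libraries alone. Over all tested genes, the deviations of libraries with the same number correlated at 0.10, 0.09, 0.05 and -0.06, and not every library correlated best with its own number. The numbers were therefore not taken to pair the samples. The class I list did follow the number, with summed levels of 14600, 8642, 5471 and 14908 CPM in peritoneal libraries, against 11564, 7506, 7674 and 10062 CPM in dura MHC II-low libraries. In dura MHC II-high libraries replicates 1 and 4 were also the higher ones, and in choroid plexus libraries they were not. Whether libraries of the same number share a mouse or a preparation is not known. Under the block H2-DMb2 was not called (0.93; 0.98 with the 8 libraries alone), nor was Cd79a with the 8 libraries alone (3.07, adjusted p = 0.0684).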

Other observations

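Pattern recognition genes were mostly lower in peritoneal macrophages. Of 18 pattern recognition genes 11 were lower and 3 higher (median log2 fold change -1.62). The lectin gene Clec4n, which encodes Dectin-2, had 5.91, 4.66, 4.9 and 2.53 CPM in peritoneal libraries, against 343, 357, 414 and 330.5 CPM in dura MHC II-low libraries (-6.32 ± 0.24). Tlr2, a receptor for bacterial lipoproteins, had 91.8, 103, 95.3 and 103 CPM, against 496, 449, 563 and 501 CPM in dura MHC II-low libraries (-2.35 ± 0.12). Tlr4, the endotoxin receptor, did not reach 2-fold (-0.94 ± 0.16, adjusted p = 6.24e-05), and was called at -1.04 without peritoneal replicate 1. The genes that rose were Naip1, Naip2 and Naip5, which encode sensors of bacterial proteins. Naip1 had 109, 114, 91 and 99.9 CPM in peritoneal libraries, against 0, 0.129, 0.0377 and 0.0353 CPM in dura MHC II-low libraries (10.78 ± 0.44; 11.73 without dura MHC II-low replicate 2). Reads of this closely related family may be split between its members. Of 8 Fc receptor genes 4 were lower and Fcgr4 alone was higher (median -1.21). Fcgr1 had 71.4, 29.9, 48.1 and 60.5 CPM, against 365, 273, 321 and 301 CPM in dura MHC II-low libraries (-2.59 ± 0.25), and Fcgr4 had 325, 56.9, 62.9 and 174 CPM, against 41.1, 33.5, 34.9 and 43.1 CPM (2.02 ± 0.45; 1.36 without peritoneal replicate 1). Fcrls, a Fc receptor-like gene of microglia and border macrophages, fell (-5.92 ± 0.34).

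Genes usually listed for monocytes were higher for 8 of 12 and lower for 1, F13a1 (median 3.39). Hp, haptoglobin, had 147, 133, 148 and 145 CPM in peritoneal libraries, against 0.0379, 6.52, 3.47 and 7.02 CPM in dura MHC II-low libraries (5.06 ± 0.76). S100a4 had 38, 52.5, 56.4 and 33.5 CPM, against 2.04, 3.05, 2.56 and 2.96 CPM in dura MHC II-low libraries (4.08 ± 0.32), and Lyz2, the lysozyme of macrophages, rose by 2.28 on the log2 scale. Fn1, also a large peritoneal gene, belongs to the same list. Of 13 genes used by macrophages in general 2 were higher, Itgam and Lyz2, and 3 lower (median -0.26). Csf1r, the receptor for macrophage growth factor, was among those that fell, with 1972, 2460.4, 1357 and 2821 CPM in peritoneal libraries, against 8175, 9029, 8204 and 7771 CPM in dura MHC II-low libraries (-1.95 ± 0.17).

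Alternative activation genes were higher for 3 of 13, among them Arg1 and Retnla, and lower for 6 (median -0.65). Il4ra, a receptor chain for interleukin 4, had 103, 87.9, 83.4 and 122 CPM in peritoneal libraries, against 775, 669, 872 and 581 CPM in dura MHC II-low libraries (-2.87 ± 0.14). The lectin Clec10a had 28.2, 30.6, 30.2 and 24.9 CPM, against 497, 462, 518 and 414 CPM in dura MHC II-low libraries (-4.05 ± 0.23). Of 20 lysosome genes none was higher and 5 were lower (median -0.49), beside 11.9% higher and 20% lower among all tested genes. Among the 5 were the proteases Ctsc (-2.14 ± 0.13) and Ctsb (-1.10 ± 0.09). Of 18 cholesterol synthesis genes 3 were higher and none lower (median 0.18), beside the same shares of 11.9% and 20%. Among the 3 were Mvd (1.77 ± 0.23) and Idi1 (1.19 ± 0.24).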
